A study of Mus musculus with 18 samples.

Results

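This account describes 9 genes of innate immunity whose products sense, relay or restrain the recognition of nucleic acid inside mouse cells: Ifih1, Ddx58, Dhx58, Tlr3, Zbp1, Eif2ak2, Mavs, Adar and Ifi205. They were taken as the probe sets that the platform annotation gives to exactly one of these symbols, and each of the 9 had exactly 1 such probe set among the 19938 genes measured. RNA of mouse stem cell cultures was read on 18 Affymetrix Mouse Gene 1.0 ST arrays, in 6 groups of 3 biological replicates. Undifferentiated embryonic stem (ES) cells and undifferentiated adult stem cells, which the series title names as adult germline stem cells, came from the 129SV background and from the Stra8-EGFP/Rosa26 background, here called Stra8. Differentiated ES cells and differentiated adult cells came from the 129SV background alone. No group carried a labelled drug, virus or interferon treatment. The labels state neither the age or sex of the source animals, nor the promoter and site of the EGFP transgene, nor feeder cells, nor how the cells were differentiated, nor how many lines or clones stand behind each group. The p-values rest on the spread within each group of 3, whose members the labels call biological replicates without naming separate cultures or animals.

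Mammalian cells detect viral and misplaced nucleic acid with a small set of receptor proteins. RIG-I (gene Ddx58) and MDA5 (gene Ifih1) are helicases of the cytosol that bind double-stranded RNA and signal through MAVS, a protein of the outer mitochondrial membrane, to switch on type I interferon. Most of the sensors are themselves interferon-induced, so their mRNA levels are commonly read as part of the interferon response. Pluripotent stem cells are known for a weak interferon response to double-stranded RNA.

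The values are log2 signals, so a difference of 1 is a 2-fold change. A gene was called where the limma difference between group means had an adjusted p under 0.05 (Benjamini-Hochberg over all 19938 genes of that comparison). Each difference is given with its standard error (SE), which uses the spread shared over all 6 groups. Array medians over all probe sets lay between 7.22 in ES 129SV and 7.38 in differentiated adult cells, and 0 pairs of arrays held identical values. Replicate 3 of the differentiated ES group stood apart from its group, with a mean correlation across genes of 0.992 and an array weight of 0.153. The summed linear signal of 8 markers of pluripotent stem cells was 29816 to 38532 in the 4 undifferentiated groups and 8080 to 11589 in the differentiated groups. The 6 germ cell markers summed to 1238 to 1978 in the undifferentiated groups, and those of the adult 129SV cells were the lowest, at 1238 to 1352. They summed to 5351 to 5891 in differentiated ES and 7677 to 8081 in differentiated adult cells. Yet 3 of the 6 were higher and 3 lower after differentiation of ES cells, and likewise of adult cells. Their mean log2 signal was 7.68 to 7.84 in ES 129SV and 7.61 to 7.82 in differentiated ES cells. It was 7.10 to 7.24 in adult 129SV and 7.95 to 8.01 in differentiated adult cells. No detection call came with the values, so no level could be set against background. Levels of different genes are not compared, because each probe set has its own response.

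Promoter sequences are shown first, since interferon acts on its target genes through short motifs near the start of transcription, and 4 sensor genes had such a motif. RefSeq promoters of mouse assembly GRCm38.p6, from 250 bases before to 50 bases after the start, were matched for 7 of the 9 genes; Dhx58 and Zbp1 were not matched. Adar had 3 promoters in the table, which gave 9 promoters in all. The core of the interferon-stimulated response element, spelled GAAA, then any 2 bases, then GAAA, was searched on both strands. It occurred in 4 of the 9 promoters, those of Ifih1, Ddx58, Eif2ak2 and Ifi205, and in 1131 of all 32851 promoters of the table (3.44%). The letters TTCNNNGAA, the core of a STAT site, occurred in 2 of the 9, those of Eif2ak2 and the third Adar promoter, and in 8.3% of all promoters. The promoter of Tlr3 had no exact match to either motif, and the 3 promoters of Adar had none to the response element core. Yet both genes had their highest level in the same group of arrays as the 4 genes with an exact core match, as described further on. An exact core match was thus not found in every matched gene with that pattern. Only exact letters were searched, so variants of the element may be present in these promoters and were not counted. Below, capitals mark matches to either motif (no match of one overlapped one of the other), and each sequence runs 5′ to 3′ along its gene. The promoter of Mavs, which also had no exact match to either motif, is set beside the 4 others, and those of Tlr3 and Adar are not printed.
Ifih1 (chr2:62646206-62646505, minus strand): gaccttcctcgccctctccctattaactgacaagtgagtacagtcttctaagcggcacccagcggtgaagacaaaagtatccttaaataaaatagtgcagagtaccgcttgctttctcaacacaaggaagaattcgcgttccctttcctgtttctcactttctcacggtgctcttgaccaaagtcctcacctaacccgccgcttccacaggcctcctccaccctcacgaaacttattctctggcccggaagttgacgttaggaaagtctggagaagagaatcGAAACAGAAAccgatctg
Ddx58 (chr4:40239776-40240075, minus strand): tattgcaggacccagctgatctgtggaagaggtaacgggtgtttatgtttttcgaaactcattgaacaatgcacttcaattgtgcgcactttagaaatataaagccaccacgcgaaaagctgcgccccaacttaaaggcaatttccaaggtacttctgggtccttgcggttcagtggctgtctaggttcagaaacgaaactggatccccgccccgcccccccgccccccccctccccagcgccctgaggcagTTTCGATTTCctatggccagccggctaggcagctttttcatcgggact
Eif2ak2 (chr17:78882523-78882822, minus strand): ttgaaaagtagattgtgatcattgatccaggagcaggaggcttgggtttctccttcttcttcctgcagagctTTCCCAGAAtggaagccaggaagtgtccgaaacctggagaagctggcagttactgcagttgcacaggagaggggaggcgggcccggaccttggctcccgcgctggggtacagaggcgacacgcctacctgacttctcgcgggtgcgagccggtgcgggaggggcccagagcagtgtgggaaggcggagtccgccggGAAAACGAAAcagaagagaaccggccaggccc
Ifi205 (chr1:174031706-174032005, minus strand): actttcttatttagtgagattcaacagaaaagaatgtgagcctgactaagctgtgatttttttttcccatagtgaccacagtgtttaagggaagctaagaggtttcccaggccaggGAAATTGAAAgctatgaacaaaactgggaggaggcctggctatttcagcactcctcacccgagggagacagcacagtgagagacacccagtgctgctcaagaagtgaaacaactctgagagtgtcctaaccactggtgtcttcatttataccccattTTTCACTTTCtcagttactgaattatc
Mavs (chr2:131233813-131234112, plus strand): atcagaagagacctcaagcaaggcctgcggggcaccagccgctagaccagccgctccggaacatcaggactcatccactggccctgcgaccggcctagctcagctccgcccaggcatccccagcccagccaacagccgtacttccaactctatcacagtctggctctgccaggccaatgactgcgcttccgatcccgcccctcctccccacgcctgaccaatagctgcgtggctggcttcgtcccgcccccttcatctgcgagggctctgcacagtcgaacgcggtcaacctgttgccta

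In Ifih1 the response element letters lay 33 to 42 bases after the start, in Ddx58 3 to 12 bases after it on the other strand, and in Eif2ak2 19 to 28 bases after it. Ifi205 had a match at positions -134 to -125, before the start, and another 24 to 33 bases after it on the other strand. The STAT letters of Eif2ak2 lay at positions -178 to -170, and this pattern matches on both strands at once. These matches are descriptions of the sequence in these windows. The labels name no measurement of factor binding.

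Undifferentiated ES 129SV cells had the highest level of 8 of the 9 genes, and Mavs was the exception. For these 8, the lowest of the 3 ES 129SV arrays lay above the highest of the other 15 arrays. The share of all genes separated in this way was not computed, so the separation is a description only. All 8 were called higher in ES 129SV than in each of the 5 other groups, as were 4.89% of all genes. Of these, 7 were at least 2-fold higher against each group, a pattern shared by 0.903% of all genes, and the exception was Adar. The gap to the next group ranged from 0.55 for Adar to 3.53 for Ifi205. With ES 129SV left aside, the means of each gene spanned only 0.33 (Dhx58) to 1.12 (Ifi205) over the other groups. RNA was taken from whole cultures, so fewer cells of a type and less RNA per cell cannot be told apart in any of these values.

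**Figure D1:**
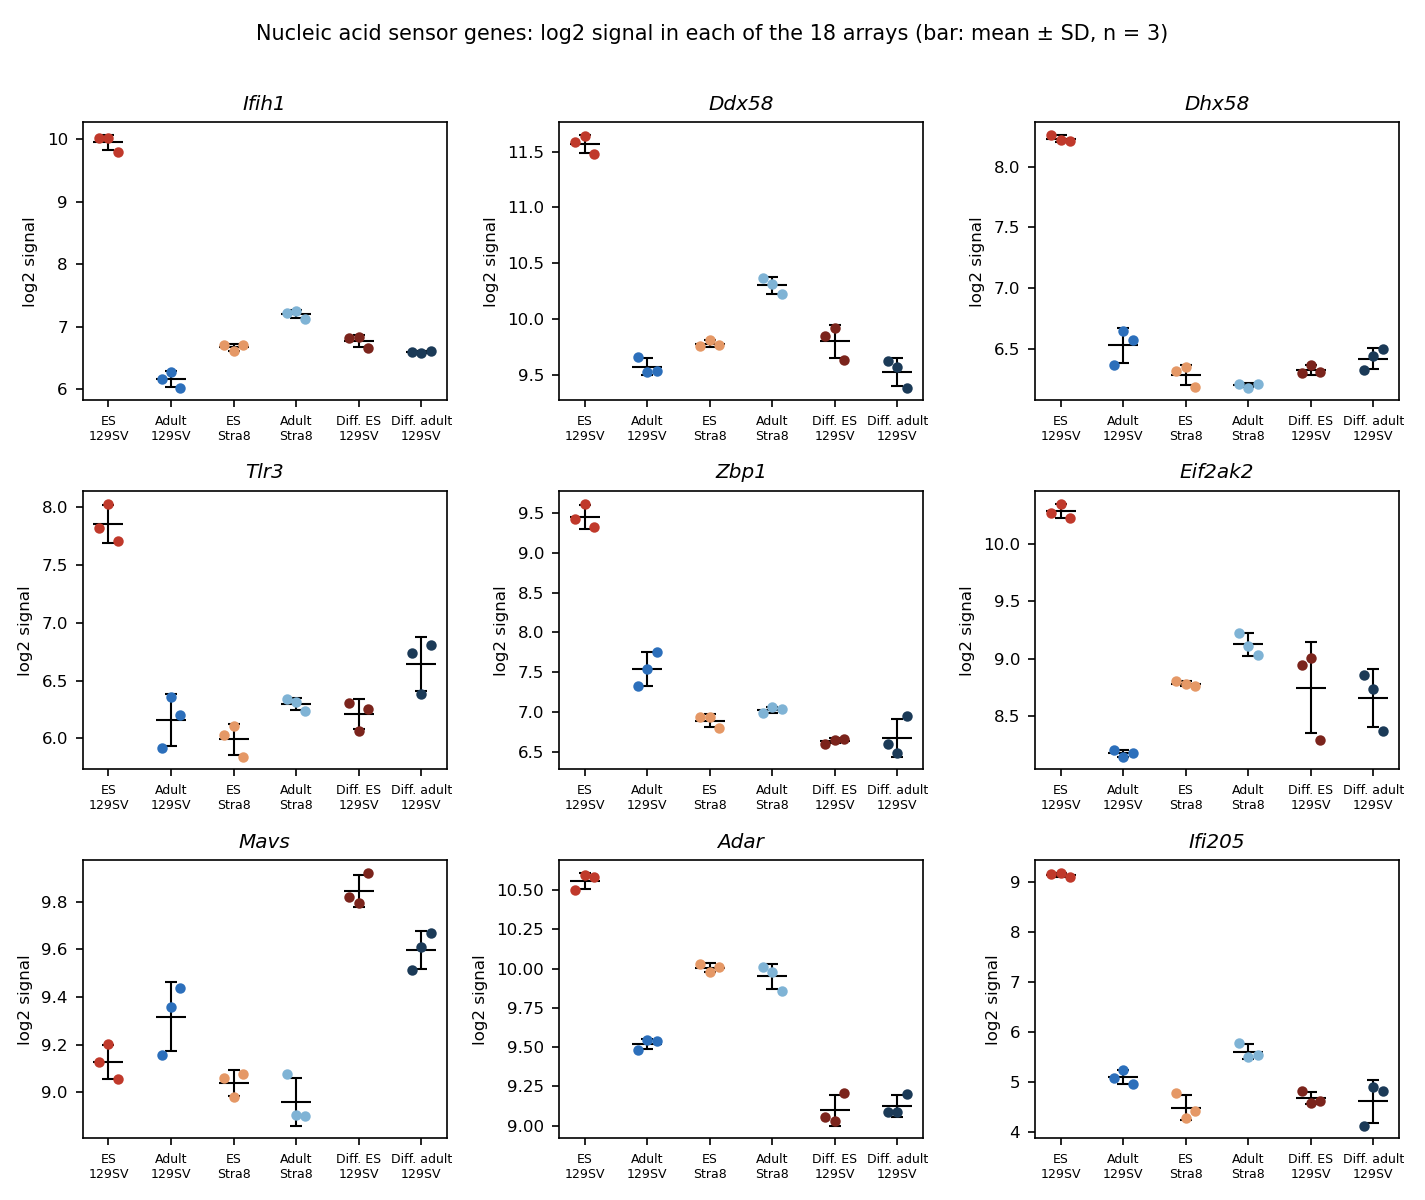
Log2 signal (vertical axis, separate scale for each gene) of the 9 sensor genes in each of the 18 arrays, by group (horizontal axis), with bars for the mean ± SD of 3 arrays. The ES 129SV arrays lie above all others for every gene but Mavs, whose highest arrays are those of the differentiated ES cells at 9.80 to 9.92.

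Ifih1 encodes MDA5, the sensor of long double-stranded RNA. Its log2 signal was 10.02, 10.03 and 9.81 in the ES 129SV arrays. It was 6.17, 6.28 and 6.02 in adult 129SV, 6.70, 6.61 and 6.71 in ES Stra8, and 7.21, 7.26 and 7.13 in adult Stra8. It was 6.81, 6.84 and 6.67 in the differentiated ES cells and 6.59, 6.59 and 6.62 in the differentiated adult cells. The ES 129SV arrays were far above the rest, adult Stra8 came next with no overlap, and adult 129SV arrays were the lowest. The adult minus ES difference in 129SV was -3.79 ± 0.08 (13.9-fold lower, adjusted p = 1.1e-15, limma). Among the middle groups, differentiated ES, ES Stra8 and differentiated adult cells did not differ from their neighbours in the order beyond the spread (adjusted p = 0.277 and 0.448, limma).

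Ddx58 encodes RIG-I, which binds RNA ends carrying a triphosphate. ES 129SV arrays had a signal of 11.58, 11.64 and 11.48. Adult 129SV arrays had 9.66, 9.53 and 9.54, against 9.76, 9.82 and 9.77 in ES Stra8, and 10.37, 10.31 and 10.23 in adult Stra8. It was 9.85, 9.92 and 9.64 in differentiated ES and 9.62, 9.57 and 9.39 in differentiated adult cells. As for Ifih1, ES 129SV was highest and adult Stra8 second, and neither overlapped any other group. The 129SV adult minus ES difference was -1.99 ± 0.08 (adjusted p = 5.6e-12, limma). The differentiated ES and ES Stra8 levels (adjusted p = 0.839, limma) and the adult 129SV and differentiated adult levels (adjusted p = 0.636, limma) were neighbours not separated by the test.

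Dhx58 encodes LGP2, a helicase related to RIG-I and MDA5 that lacks their signalling domains and modulates both. Its signal was 8.21 to 8.27 in ES 129SV and 6.18 to 6.64 in the other 15 arrays. Outside ES 129SV, no step between neighbouring groups in its order was called, though the highest and lowest of these groups differed (adjusted p = 0.000723, limma). The order ran from adult 129SV (6.53 ± 0.14, SD, n = 3) down to adult Stra8 (6.20 ± 0.02, SD, n = 3), so the second-highest group of Ifih1 and Ddx58 was the lowest for Dhx58. In 129SV, adult cells differed from ES cells by -1.71 ± 0.07 (adjusted p = 7.13e-12, limma).

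Tlr3 encodes the endosomal receptor for double-stranded RNA, which signals through the adaptor TICAM1 and not through MAVS. ES 129SV arrays had 7.71 to 8.03 and the other 15 arrays 5.84 to 6.81. Its second-highest group was differentiated adult 129SV, with 6.74, 6.38 and 6.81, which was called above the next group, adult Stra8, by 0.35 (adjusted p = 0.0268, limma). The remaining groups were not separated from their neighbours. Adult minus ES in 129SV was -1.70 ± 0.12 (adjusted p = 9.67e-09, limma).

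Zbp1 encodes a sensor of left-handed Z-form RNA and DNA that can start necroptosis, a form of cell death, through the kinase RIPK3. The ES 129SV arrays had 9.43, 9.62 and 9.32. The adult 129SV arrays followed with 7.33, 7.54 and 7.75, then adult Stra8 with 6.99, 7.06 and 7.03 and ES Stra8 with 6.94, 6.93 and 6.80. Differentiated cells had 6.60, 6.65 and 6.66 (ES) and 6.60, 6.49 and 6.95 (adult). Adult 129SV was second here and did not overlap any other group, unlike for Ifih1 and Eif2ak2, where it was the lowest. For adult minus ES in 129SV the value was -1.92 ± 0.11 (adjusted p = 7.06e-10, limma).

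Eif2ak2 encodes PKR, a kinase that binds double-stranded RNA and blocks protein synthesis by phosphorylating the translation factor eIF2-alpha. The ES 129SV arrays had 10.27, 10.36 and 10.23, and the adult 129SV arrays 8.20, 8.14 and 8.17. In the Stra8 background ES cells had 8.80, 8.78 and 8.76 and adult cells 9.23, 9.11 and 9.03. The differentiated ES cells had 8.95, 9.001 and 8.29 and the differentiated adult cells 8.86, 8.74 and 8.37. Adult 129SV arrays were below all others, and in both differentiated groups replicate 3 was the lowest array. Without replicate 3 of differentiated ES, the differentiated ES minus ES difference changed from -1.54 to -1.31 and stayed called. The adult minus ES difference in 129SV was -2.11 ± 0.15 (adjusted p = 4.98e-09, limma).

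Ifi205 belongs to the p200 family (also called PYHIN), several members of which bind DNA. The ES 129SV arrays had 9.16, 9.16 and 9.09, and every other array lay between 4.13 and 5.78. The adult minus ES difference in 129SV was -4.03 ± 0.17 (adjusted p = 8.29e-12, limma), the largest in size of the 9 genes. Genes of the p200 family are related in sequence, some of them closely, so a probe set for Ifi205 may also read relatives, and the value is uncertain to that extent.

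Mavs, the adaptor shared by RIG-I and MDA5, and Adar, the enzyme that edits adenosine to inosine in double-stranded RNA and keeps the cell's own RNA from activating MDA5, act around the receptors. Mavs departed from the pattern of the receptors, and Adar shared it with smaller differences. For Mavs, ES 129SV arrays had 9.13, 9.20 and 9.06 and adult 129SV arrays 9.16, 9.36 and 9.44. It had 9.06, 8.98 and 9.08 in ES Stra8, and 9.08, 8.90 and 8.90 in adult Stra8. It had 9.82, 9.80 and 9.92 in differentiated ES and 9.51, 9.61 and 9.67 in differentiated adult cells. The differentiated groups were the highest and did not overlap the undifferentiated ones. Among the 4 undifferentiated groups, no step between neighbours in the order was called. Groups further apart did differ, since adult 129SV was above ES Stra8 by 0.28 (adjusted p = 0.00592, limma). It was above adult Stra8 by 0.36 (adjusted p = 0.000814, limma). Its adult minus ES difference in 129SV was 0.19 ± 0.08, which missed the threshold (adjusted p = 0.0522, limma). Under 7 of 27 alternative settings it passed, with adjusted p between 0.00768 and 0.216 over all of them.

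For Adar, the ES 129SV arrays had 10.50, 10.60 and 10.58, the ES Stra8 arrays 10.03, 9.97 and 10.01, and the adult Stra8 arrays 10.01, 9.98 and 9.86. Adult 129SV had 9.48, 9.54 and 9.54, differentiated ES 9.05, 9.03 and 9.21, and differentiated adult cells 9.09, 9.08 and 9.20. Levels fell into steps, with ES 129SV on top, both Stra8 groups next and overlapping, adult 129SV below them, and both differentiated groups at the bottom and overlapping. Adult 129SV cells differed from ES 129SV cells by -1.04 ± 0.06 (adjusted p = 5.69e-10, limma).

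The series title asks how similar ES cells and adult germline stem cells are in their transcriptomes, and the sensor genes gave different answers in the 2 backgrounds. In 129SV, 8 of the 9 genes were lower in adult than in ES cells, each at least 2-fold, and 0 were higher. Of all genes, 46.1% were called in this comparison, 23.1% as lower and 3.43% as at least 2-fold lower. The median difference of the 9 genes was -1.92, against 0.06 over all genes. In the Stra8 background 3 genes were higher in adult cells, 0 were lower and 6 were not called. Of all genes, 28.3% were called in either direction, so a share of 3 in 9 was near that background. All 3 calls were higher, a larger share than the 13.2% of all genes called higher, and this excess was not tested. The 3 were Ifih1 (0.53 ± 0.08, adjusted p = 5.56e-05), Ddx58 (0.52 ± 0.08, adjusted p = 9.42e-05) and Ifi205 (1.12 ± 0.17, adjusted p = 7.6e-05), all with limma and without overlap of the arrays. For the others the 95% intervals of the difference lay between -0.24 and 0.65. Tlr3 (0.31 ± 0.12) and Eif2ak2 (0.34 ± 0.15) also passed with dim genes left out, with the compared groups fitted alone and with array weights, which raised the count from 3 to 5.

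**Figure D2:**
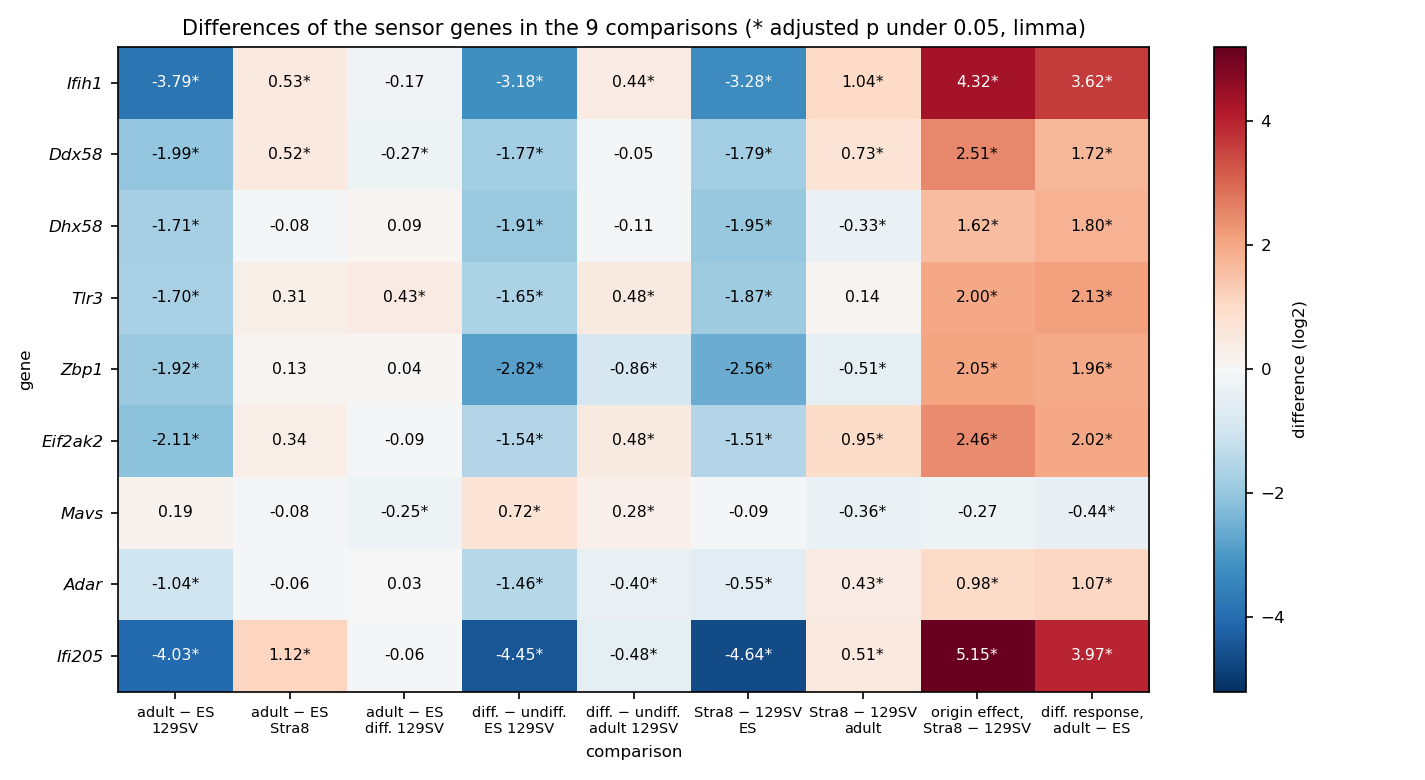
Log2 difference (colour scale and printed value) of the 9 sensor genes (rows) in the 9 comparisons (columns); an asterisk marks an adjusted p under 0.05. The columns in which ES 129SV is the reference are blue for the receptors and Adar, and the Mavs row is pale throughout, with values from -0.44 to 0.72.

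The difference between both backgrounds was tested directly, as the adult minus ES effect in Stra8 minus that in 129SV. This interaction was positive and called for 8 genes, with 43.1% of all genes called and 21.3% called as positive, and ranged from 0.98 ± 0.09 for Adar to 5.15 ± 0.23 for Ifi205. It was 4.32 ± 0.11 for Ifih1 and 2.51 ± 0.11 for Ddx58. For Mavs it was -0.27 ± 0.11 and missed the threshold (adjusted p = 0.0551, limma), but passed under 8 of 27 alternative settings, with adjusted p from 0.00998 to 0.144 over all of them. Both comparisons of backgrounds share their samples with those of origin, so the values are set side by side. Between ES cells, Stra8 minus 129SV, 8 genes were lower, 7 of them at least 2-fold, against 41.4% of all genes called, 20.0% called lower and 3.42% called at least 2-fold lower. Of the called genes, 51.6% were higher, or 41.5% with arrays centred on their medians. The values ran from -0.55 ± 0.06 for Adar to -4.64 ± 0.17 for Ifi205, while Mavs differed by -0.09 ± 0.08 (adjusted p = 0.405, limma).

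Between adult cells the pattern was mixed. In Stra8 minus 129SV, 5 genes were higher, 3 were lower and 1 was not called, where 51.0% of all genes were called. Ifih1 (1.04 ± 0.08), Eif2ak2 (0.95 ± 0.15), Ddx58 (0.73 ± 0.08), Ifi205 (0.51 ± 0.17) and Adar (0.43 ± 0.06) were higher in adult Stra8 cells. Zbp1 (-0.51 ± 0.11), Mavs (-0.36 ± 0.08) and Dhx58 (-0.33 ± 0.07) were lower there, and Tlr3 was not called (0.14 ± 0.12, adjusted p = 0.379, limma). The call of Ifi205 was lost without replicate 3 of adult 129SV (adjusted p = 0.0653, limma) or replicate 1 of adult Stra8 (0.0757), within a range of 0.00149 to 0.0757 over 27 alternatives. So the helicase sensors Ifih1 and Ddx58 and the helicase LGP2 gene Dhx58 moved in opposite directions between these adult cells.

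Differentiation of ES 129SV cells was accompanied by lower levels of 8 of the 9 genes, each at least 2-fold, and by a higher level of Mavs. Of all genes, 55.2% were called, 27.3% as lower and 6.80% as at least 2-fold lower. The decreases were -4.45 ± 0.17 for Ifi205, -3.18 ± 0.08 for Ifih1, -2.82 ± 0.11 for Zbp1, -1.91 ± 0.07 for Dhx58, -1.77 ± 0.08 for Ddx58, -1.65 ± 0.12 for Tlr3, -1.54 ± 0.15 for Eif2ak2 and -1.46 ± 0.06 for Adar. Mavs rose by 0.72 ± 0.08 (adjusted p = 3.35e-07, limma). Centring each array on its median shifted the median of all genes by -0.13 here and lowered the share of higher genes among those called from 50.5% to 37.1%. All 9 calls kept their direction under both scalings tried.

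Differentiation of adult 129SV cells changed the sensor genes less and in both directions. Ifih1 (0.44 ± 0.08), Tlr3 (0.48 ± 0.12), Eif2ak2 (0.48 ± 0.15) and Mavs (0.28 ± 0.08) rose. Zbp1 (-0.86 ± 0.11), Adar (-0.40 ± 0.06) and Ifi205 (-0.48 ± 0.17) fell, and Ddx58 (-0.05 ± 0.08) and Dhx58 (-0.11 ± 0.07) were not called. Of all genes 59.7% were called, and 46.0% of these were higher, or 35.9% with arrays centred. Ifi205 rested on replicate 1 of the differentiated adult cells, whose 4.13 lay below the 4.91 and 4.82 of the others. Without that array its difference was -0.24 (adjusted p = 0.131, limma), and without replicate 2 of adult 129SV it was also not called (adjusted p = 0.0769), in a range of 0.00518 to 0.131. Without the first of these arrays Eif2ak2 was not called either (adjusted p = 0.0556, range 0.00025 to 0.0556, limma). Mavs missed the threshold after quantile normalisation (adjusted p = 0.0505, range 0.00104 to 0.0505), Dhx58 passed with centring (0.0134), with quantile normalisation (0.0354) and without replicate 1 of adult 129SV (0.0198), in a range of 0.0134 to 0.586, and Ddx58 passed after quantile normalisation (0.0498).

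The response to differentiation differed between origins for 9 of 9 genes when tested as an interaction, adult minus ES, with 45.7% of all genes called and 24.2% called as positive. It was positive for 8 genes, from 1.07 ± 0.09 for Adar to 3.97 ± 0.23 for Ifi205, and 3.62 ± 0.11 for Ifih1. For Mavs it was negative (-0.44 ± 0.11, adjusted p = 0.0032, limma), since its rise was larger in ES cells. The undifferentiated ES 129SV group enters this contrast and the origin contrast in 129SV alike.

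**Figure D3:**
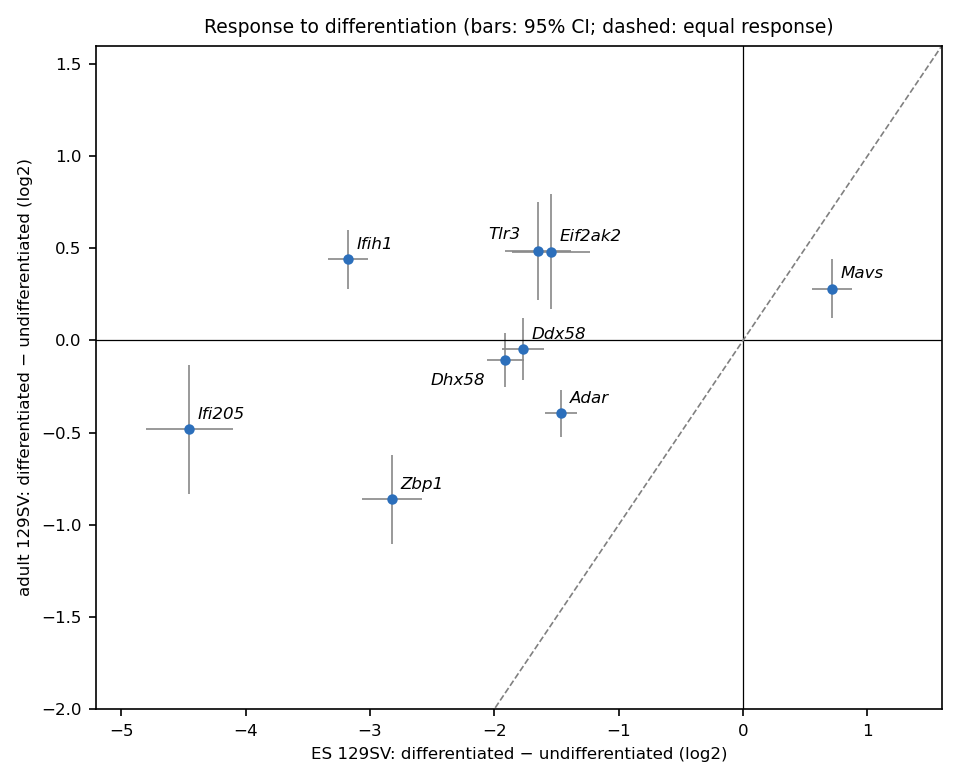
Log2 difference between differentiated and undifferentiated 129SV cells for ES cells (horizontal axis) and adult cells (vertical axis), 1 point per sensor gene with 95% confidence intervals; the dashed line marks equal responses. All genes but Mavs lie far to the left, from -4.45 to -1.46, while the adult values stay between -0.86 and 0.48.

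Once differentiated, ES and adult cells were close in the sensor genes. In the adult minus ES comparison 1 gene was higher, 2 were lower and 6 were not called, where 32.2% of all genes were called, so the share of the 9 genes was near the background. Tlr3 was higher by 0.43 ± 0.12 (adjusted p = 0.0131, limma), and Ddx58 (-0.27 ± 0.08, adjusted p = 0.0134) and Mavs (-0.25 ± 0.08, adjusted p = 0.0183) were lower. Fitted on these 6 arrays alone, 0 genes were called (3 genes by the fit to all arrays), with adjusted p of 0.0574 for Tlr3, 0.075 for Mavs and 0.124 for Ddx58. Only 1 gene stayed called without replicate 2 of differentiated ES or without replicate 1 or replicate 3 of differentiated adult cells. Over 27 alternatives the adjusted p ran from 0.00254 to 0.0636 for Tlr3, from 0.000617 to 0.124 for Ddx58 and from 0.00223 to 0.081 for Mavs.

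Markers of other cell types moved with several of these results. The summed linear signal of 12 fibroblast markers (12 of 12 measured) was 46448 to 47208 in ES 129SV, 31123 to 31932 in adult Stra8 and 25307 to 25886 in adult 129SV. It was 20918 to 21482 in differentiated adult cells, 19055 to 19564 in ES Stra8 and 12638 to 13164 in differentiated ES. ES 129SV was thus highest and adult Stra8 second, which is also the order of Ifih1, Ddx58, Eif2ak2 and Ifi205 at the top. It is not the order of the others highest in ES 129SV. Second were adult 129SV for Dhx58 and Zbp1, differentiated adult 129SV for Tlr3 and ES Stra8 for Adar. Dhx58 was lowest in adult Stra8. Of the 12 markers, 11 were lower in adult than in ES 129SV cells, 12 were lower after ES differentiation, 11 were lower in ES Stra8 than in ES 129SV, and 12 were higher in adult than in ES Stra8 cells. After differentiation of adult 129SV cells 9 were lower and 3 higher, where 4 sensor genes rose and 3 fell. In differentiated adult minus ES cells 9 were higher and 1 was lower, where 1 sensor gene was higher and 2 were lower. Between adult cells, Stra8 minus 129SV, 6 were higher and 2 lower. Of all genes, 23.1% were called lower in adult than in ES 129SV cells, 27.3% after ES differentiation and 20.0% in ES Stra8. In adult minus ES Stra8, 13.2% were called higher. The shares called were 59.7% in adult differentiation, 32.2% in differentiated adult minus ES and 51.0% between adult cells. No marker can be said to be at 0 on this scale, and the labels do not say whether feeder fibroblasts were present. The part of these cells in the sensor results was not tested. The 13 markers of macrophages and blood (13 of 13 measured) summed to 6156 to 6308 in ES 129SV, below adult Stra8 (7146 to 7406) and ES Stra8 (6415 to 6615), and above adult 129SV (4897 to 5232), differentiated ES (3529 to 3642) and differentiated adult cells (2387 to 2617). By the mean log2 signal of the same 13 markers the order was another, with ES 129SV highest (7.35 to 7.38) but overlapping adult 129SV (7.28 to 7.37), then adult Stra8 (7.26 to 7.34) and ES Stra8 (7.03 to 7.07). Of the 13, 4 were lower and 1 was higher in adult than in ES 129SV cells, where 46.1% of all genes were called. In ES Stra8 against ES 129SV 7 were lower and 1 was higher, where 41.4% of all genes were called. The part of these 13 markers in the results was not tested.

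**Figure D4:**
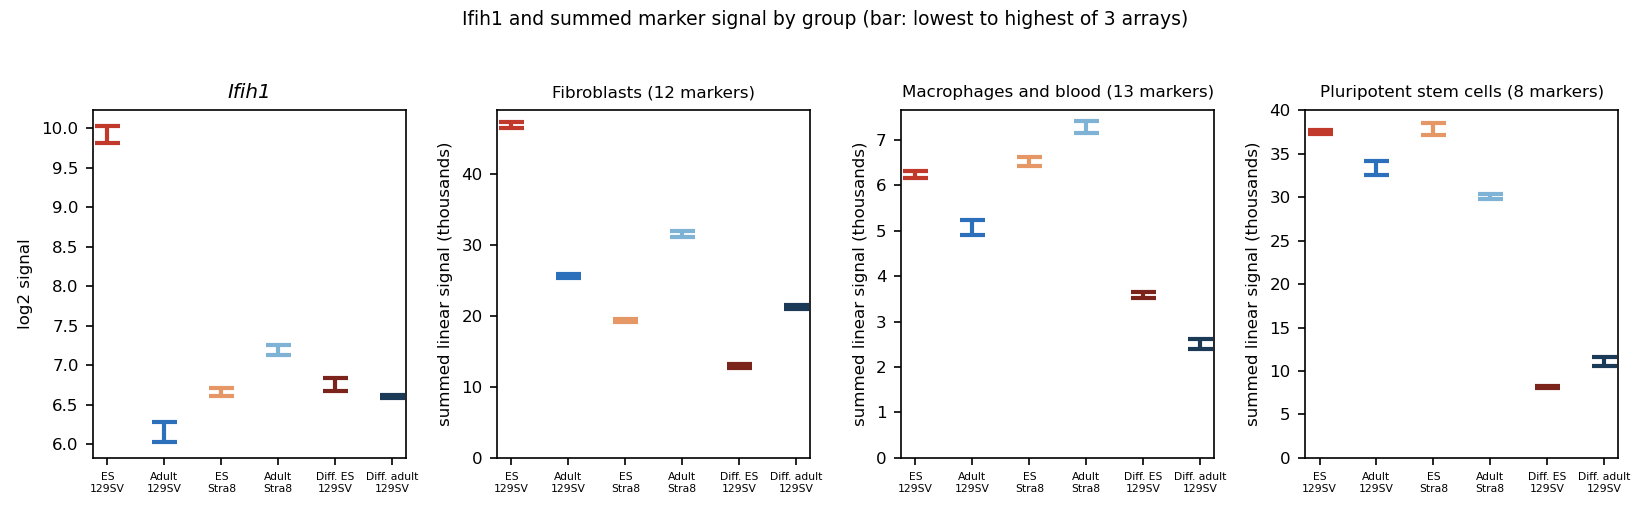
Log2 signal of Ifih1 (left) and summed linear signal of markers of fibroblasts, macrophages and blood, and pluripotent stem cells by group; bars run from the lowest to the highest of 3 arrays. ES 129SV is highest for Ifih1 and for the fibroblast markers, while adult Stra8 has the highest sum for macrophages and blood, although by their mean log2 signal ES 129SV is highest (7.35 to 7.38).

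Other genes of the pathway were counted from lists that leave out the 9 genes. Among 24 other sensors of RNA and DNA, 14 were lower and 3 higher in adult than in ES 129SV cells, 10 of them at least 2-fold lower (median -0.53, against 0.06 over all genes). Of all genes, 23.1% were called lower there and 3.43% at least 2-fold lower. Of these 24, 10, named after their values were seen, were at least 2-fold higher in ES 129SV than in each other group, all of them p200 genes (Ifi203, Ifi202b, Ifi209), genes for 2′-5′ oligoadenylate synthetases and their relatives (Oas1a, Oas1b, Oas2, Oas3, Oasl1, Oasl2) or the helicase gene Ddx60. Of all genes, 0.903% were at least 2-fold higher in ES 129SV than in each other group. Within the list, the p200 genes changed most in adult minus ES 129SV. Ifi203 had -4.87 ± 0.18, Ifi209 -4.22 ± 0.26 and Ifi202b -3.86 ± 0.14, and the same reservation on related sequences holds. Oas2, which encodes one of these synthetases, had -3.10 ± 0.08. In the Stra8 background 6 of the 24 were higher in adult cells and 1 was lower. Of all genes, 28.3% were called there, so the share called in either direction was near the background. The share called higher was above the 13.2% of all genes called higher, and this excess was not tested. Ifi203 (0.56 ± 0.18), Ifi202b (0.92 ± 0.14) and Oas2 (0.23 ± 0.08) were among the 6, and Ifi209 was not called (0.72 ± 0.26). After ES differentiation 17 of the 24 fell and 2 rose, where 55.2% of all genes were called, and after differentiation of adult cells 13 fell and 4 rose, where 59.7% were.

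**Figure D5:**
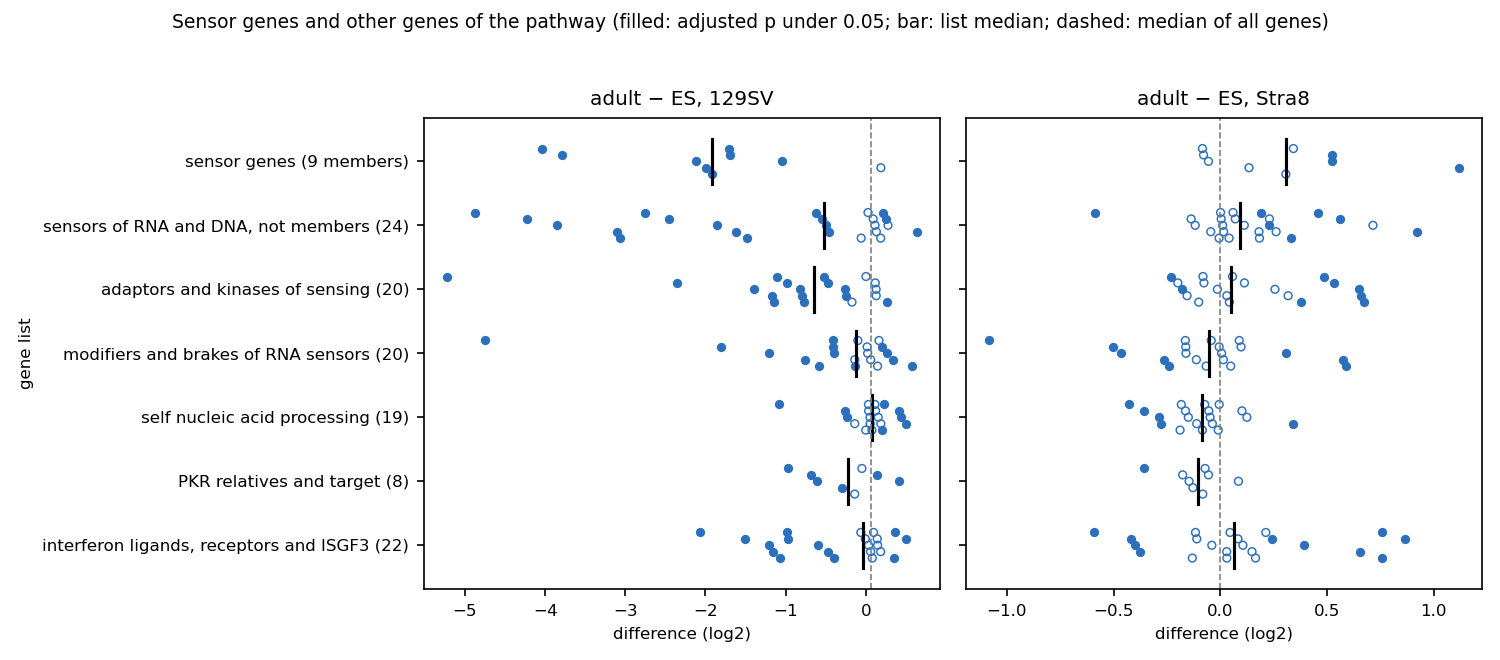
Log2 difference, adult minus ES, in the 129SV (left) and Stra8 (right) backgrounds for the 9 sensor genes and 6 lists of pathway genes; filled points have an adjusted p under 0.05, black bars are list medians and dashed lines the median of all genes. In 129SV the sensor genes have the lowest median, -1.92, while the list of genes that process the cell's own nucleic acid has 0.08.

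Among 20 adaptors and kinases that relay the signal, 14 were lower and 1 was higher in adult than in ES 129SV cells. Of all genes, 23.1% were called lower there and 3.43% at least 2-fold lower. In the list 6 were at least 2-fold lower, and the list median was -0.65. Irf7, which encodes a master factor of interferon gene transcription, differed most (-5.22 ± 0.09), with group means of 12.53 in ES 129SV and 7.30 to 8.80 in the 5 other groups. Both effectors of necroptosis downstream of Zbp1 were lower in adult than in ES 129SV cells, the pore-forming protein gene Mlkl by a difference of -2.36 ± 0.13 and its kinase gene Ripk3 by -1.40 ± 0.11. In the Stra8 background Mlkl was not called (0.32 ± 0.13) and Ripk3 was higher in adult cells (0.49 ± 0.11). After ES differentiation Mlkl and Ripk3 were lower (-4.65 ± 0.13 and -3.09 ± 0.11), and after differentiation of adult cells likewise (-1.63 ± 0.13 and -1.78 ± 0.11), as Zbp1 was. Myd88, the adaptor of most Toll-like receptors but not of TLR3, had -1.17 ± 0.07 in adult minus ES 129SV. The 1 higher gene of this list, named after its value was seen, was Ticam1, the adaptor of TLR3 (0.26 ± 0.08, adjusted p = 0.0145, limma). Ticam1 also rose on ES differentiation (1.07 ± 0.08) and on differentiation of adult cells (0.48 ± 0.08), as Mavs did. In the Stra8 background 6 of the 20 were higher in adult cells and 2 were lower, where 28.3% of all genes were called. After differentiation of adult 129SV cells 11 of the 20 rose and 4 fell, where 59.7% of all genes were called.

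Of the modifiers and brakes of RNA sensors, 9 of 20 were lower and 4 were higher in adult than in ES 129SV cells (median -0.12). Of all genes, 46.1% were called in this comparison and 23.1% called lower. Usp18, which removes the ubiquitin-like protein ISG15 and damps interferon receptor signalling, had -4.75 ± 0.09. Tnfaip3, a brake on NF-kB, had -1.80 ± 0.07, and Zc3hav1, an antiviral zinc finger protein gene, had -1.21 ± 0.07. Of 19 genes that process the cell's own nucleic acid, 3 were lower and 5 higher (3 and 3 with arrays centred, 2 and 7 after quantile normalisation), where 46.1% of all genes were called, so the share called was near the background. In this list Pnpt1, a mitochondrial RNA-degrading enzyme gene, was at least 2-fold lower (-1.08 ± 0.08). Among 8 genes for relatives and targets of PKR, 4 were lower and 2 higher (median -0.22), and 0 of them at least 2-fold lower.

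Of 22 genes for interferons, their receptors and the factors they activate, 10 were lower and 3 higher in adult than in ES 129SV cells, with a list median of -0.03. Of all genes, 46.1% were called in this comparison and 23.1% called lower. Stat2 (-2.07 ± 0.06) and Irf9 (-1.51 ± 0.06), which together form part of the complex that acts on the response element, and the receptor genes Il10rb (-1.21 ± 0.08) and Ifnar2 (-1.15 ± 0.10) were at least 2-fold lower. In ES Stra8 against ES 129SV these 4 were also lower, by differences of -1.71 ± 0.06, -1.13 ± 0.06, -1.26 ± 0.08 and -1.09 ± 0.10. The receptor genes did not follow the sensors on ES differentiation, since Il10rb rose (0.69 ± 0.08) and Ifnar2 was not called (-0.19 ± 0.10). Both rose on differentiation of adult cells, Il10rb by 1.93 ± 0.08 and Ifnar2 by 1.01 ± 0.10. Ifnb1, the interferon beta gene, chosen for mention after its values were seen, was not called between adult and ES cells in 129SV (0.10 ± 0.11, adjusted p = 0.509, limma), and its group means lay between 4.87 and 5.25.

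The genes most like each sensor over the 18 arrays were picked by Pearson correlation among 5485 genes whose group means spanned at least 1. The 18 arrays fall into 6 groups, so these correlations mostly reflect group means and are given as a description. Closest to Ifih1 were Usp18, Ube2l6 and Irf7 (r of 0.993, 0.993 and 0.992), and to Ddx58 they were Irf7, Ampd3 and Ifi203 (0.981, 0.980 and 0.979). Dhx58 was nearest to Slfn4, Gbp3 and Ddx60 (0.985, 0.983 and 0.982) and Zbp1 to Ddx60, Smox and Dtx3l (0.978, 0.978 and 0.977). Tlr3 was nearest to Tor3a (0.971), Eif2ak2 to Rsbn1 (0.966) and Ifi205 to Znfx1 (0.988). The nearest genes of Mavs were Tead3, Nol4l and Arhgap27 (0.971, 0.969 and 0.968), and those of Adar were Rbpj, Pla1a and Stk38l (0.983, 0.979 and 0.976). None of these 6 genes was among the nearest 3 of any other sensor gene.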

How the data were processed

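Total RNA was labelled from 300 ng per array, per the labels' protocols. The authors deposited log2 signals, which the submitters' processing notes tie to RMA and Affymetrix Expression Console (version not given in the sources used here). No scaling was added, and values spanned 1.27 to 14.6. Of 35556 probe sets, the 21789 with 1 symbol were kept, and the one with the highest mean over 18 arrays stood for each of 19938 genes. Group means were estimated over the 18 arrays in one limma 3.58.1 model in R 4.3.3 (12 residual and 3.78 prior degrees of freedom), and 9 comparisons and 15 pairs of groups were tested, each adjusted over all genes. The scripts were tested on simulated data. The 9 genes, the lists and the markers were chosen with earlier results of these data known.

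All 9 genes are named. From each list, the 4 genes with the largest called change of at least 1 in adult minus ES 129SV are named, and for likeness the 3 genes of highest correlation; for 3 sensors only the first is printed. Ticam1, Ifnb1 and the list members 2-fold higher in ES 129SV than everywhere else were named after their values were seen. The likeness of the RIG-I family proteins was not analysed here. Samples were not paired by replicate number in the main fit. Same-numbered arrays correlated in their deviations from group means between -0.22 and 0.44, and others between -0.37 and 0.31. The value of 0.44 came from a pair of arrays numbered 3. Such ranges cannot show whether some arrays shared a batch, which was not tested. Some listed genes without a single-symbol probe set were not analysed here. The alternatives were 2 scalings, a filter on dim genes (11406 kept, all 9 sensor genes among them), the compared groups alone, array weights (whose estimation stopped before full convergence), a variance trend with robust prior, a replicate block, 2 probe set rules and each array left out. The number of arrays limits the precision.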

Additional observations from a re-analysis of the deposited data

Results flagged for a closer look

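The effect of origin, adult minus ES, differed between the Stra8 and 129SV backgrounds for 8 sensor genes, by the test of the interaction (limma, adjusted p under 0.05). The difference of effects was 5.15 for Ifi205, 4.32 for Ifih1, 2.51 for Ddx58, 2.46 for Eif2ak2, 2.05 for Zbp1, 2.00 for Tlr3, 1.62 for Dhx58 and 0.98 for Adar.

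The response to differentiation differed between adult and ES 129SV cells for all 9 genes by the same kind of test. The difference of responses was 3.97 for Ifi205, 3.62 for Ifih1, 2.13 for Tlr3, 2.02 for Eif2ak2, 1.96 for Zbp1, 1.80 for Dhx58, 1.72 for Ddx58, 1.07 for Adar and -0.44 for Mavs. Both sets of values contain the ES 129SV arrays. Single values were not tested as outliers within groups of 3 arrays.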

How the results depend on the processing

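Over 27 alternatives, 81 differences (9 genes in 9 comparisons) gave 2187 values, of which 2124 kept their direction and their side of the threshold, 19 lost the call, 33 gained one and 11 changed sign, 0 of them for a called difference. Many of these differences could not move. Each of the 9 genes had a single probe set, so the probe set rules left its differences unchanged. Leaving out an array outside the compared groups changed only the SE and adjusted p. The number kept is thus not by itself a measure of stability. Every sensor gene kept its call and direction under all 27 in ES differentiation, in Stra8 minus 129SV of ES cells and in the response to differentiation. The counts of 8 and 7 genes higher in ES 129SV than in each other group were the same in all 27, a check chosen after seeing the data. In adult minus ES Stra8 the count of 3 became 5 with dim genes left out, with the compared groups alone and with array weights, where all genes called went from 5638 to 8690 with the weights. In adult minus ES after differentiation the count of 3 became 0 with the compared groups alone (all genes called 6419 to 3537) and ran from 1 to 4 with 1 array left out. Sign changes in that comparison were Zbp1 at -0.0065 with array weights and Adar at -0.045 after quantile normalisation. With 1 array left out, the ranges were -0.092 to 0.14 for Zbp1, -0.011 to 0.084 for Adar, -0.32 to 0.052 for Eif2ak2 and -0.20 to 0.18 for Ifi205. Ddx58 on differentiation of adult cells ran from -0.095 to 0.023 in the same way. The cause of these changes was not tested. The replicate number as a block left the counts at 8, 3, 9, 7, 8, 8, 8 and 9 and moved that of adult minus ES Stra8 from 3 to 4, by Eif2ak2 (adjusted p = 0.0475, limma, range over alternatives 0.000749 to 0.255). The labels give no origin for the shared numbers. No background signal was at hand, so a low level may be no expression.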
